A study of Rattus norvegicus with 12 samples.

Results

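Egr1, Egr2, Egr3, Nab2, Ier2, Ier3 and Srf are 7 genes of the early transcriptional response to growth factors, examined here in cultured astrocytes from the optic nerve head of rats, with and without epidermal growth factor (EGF). They were taken by gene symbol from a fixed list of names, drawn up with earlier results of these data known, and are 7 of the 14217 genes that the array names by 1 symbol. They carry 10 probe sets, of which 9 passed the filter on dim probe sets and entered the tests. Each gene is described by its brightest probe set, and the other probe sets of Egr2 and Srf are given beside it.

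Total RNA was measured on 12 one-colour Affymetrix arrays from 2 experiments, each of which set EGF-treated cultures against sister cultures without EGF. The groups were EGF at 12 h, control at 12 h, EGF at 4 h and control at 4 h, with 3 arrays each. Strain, age and EGF dose are not given in the sources used here. Group and replicate number came from the sample titles, because the description field calls every sample a control. No label says that replicates came from separate cultures, so the p-values may measure technical spread only.

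EGF binding to its receptor activates the Ras, Raf, MEK and ERK cascade, and ERK phosphorylates the ternary complex factors Elk1, Elk3 and Elk4. These ETS proteins sit beside serum response factor (SRF) on CArG boxes, the A- and T-rich SRF binding site of many immediate early promoters, which are transcribed without new protein synthesis. EGR proteins are zinc finger transcription factors made from such genes. They bind GC-rich sites and activate their own corepressor gene Nab2, a known negative feedback loop. In astrocytes, Egr1 is known as a rapid marker of growth factor and injury signalling.

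The start regions of the genes are shown first, because the CArG box is the feature that defines SRF targets. RefSeq promoter windows of build GRCr8, running from 250 bases before to 50 bases after the annotated start, were found for 5 of the 7 genes, while Egr3 and Ier3 are named only. The 4 windows printed belong to Egr1 and Egr2, to Srf itself and to Ier2, which had the largest EGF ratio at 12 h. They cover chr18:26736828-26737127 on the plus strand for Egr1, chr20:21054392-21054691 on the minus strand for Egr2, chr9:21923826-21924125 on the plus strand for Srf and chr19:40399123-40399422 on the plus strand for Ier2. Each is written 5' to 3' along the gene, and the capitals mark CArG boxes.
Egr1: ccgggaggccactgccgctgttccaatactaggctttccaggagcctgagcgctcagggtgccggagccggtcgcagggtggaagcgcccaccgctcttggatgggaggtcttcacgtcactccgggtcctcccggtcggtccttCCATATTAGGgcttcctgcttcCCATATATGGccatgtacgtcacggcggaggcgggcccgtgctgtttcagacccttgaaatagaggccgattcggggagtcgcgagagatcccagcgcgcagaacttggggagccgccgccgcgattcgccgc
Egr2: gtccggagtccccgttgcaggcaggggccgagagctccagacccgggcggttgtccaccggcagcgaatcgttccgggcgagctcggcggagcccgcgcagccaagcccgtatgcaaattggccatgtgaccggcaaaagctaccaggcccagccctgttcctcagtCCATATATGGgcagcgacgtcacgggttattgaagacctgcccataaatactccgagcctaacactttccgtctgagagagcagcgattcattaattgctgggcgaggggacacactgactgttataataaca
Srf: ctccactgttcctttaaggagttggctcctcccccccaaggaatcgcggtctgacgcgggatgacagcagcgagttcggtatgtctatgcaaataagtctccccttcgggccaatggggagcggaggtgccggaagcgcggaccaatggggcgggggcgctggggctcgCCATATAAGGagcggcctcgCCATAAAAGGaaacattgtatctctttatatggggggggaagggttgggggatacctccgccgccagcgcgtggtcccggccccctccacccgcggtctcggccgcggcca
Ier2: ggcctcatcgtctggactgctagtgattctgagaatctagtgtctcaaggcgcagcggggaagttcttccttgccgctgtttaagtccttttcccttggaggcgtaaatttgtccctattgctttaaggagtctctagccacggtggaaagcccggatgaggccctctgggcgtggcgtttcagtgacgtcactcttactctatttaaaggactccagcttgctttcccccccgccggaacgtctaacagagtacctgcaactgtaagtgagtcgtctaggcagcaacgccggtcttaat

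CArG boxes were found in 3 of the 5 windows. Egr1 held CCATATTAGG at 105 to 96 bases and CCATATATGG at 83 to 74 bases before the start. Egr2 held a single box with the same letters, CCATATATGG, at the same distance of 83 to 74 bases. Srf held CCATATAAGG at 81 to 72 bases and CCATAAAAGG at 61 to 52 bases before its own start. Ier2 and Nab2 (window chr7:65389206-65389505, minus strand) held none, which says only that these letters are not in those windows. Over 33469 rat promoters of the same length, 548 (1.64%) held a CArG box on either strand, and 7 (0.0209%) held more than 1.

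The other motifs searched on both strands were TGACGT, the core of the cAMP response element, CCGGAA, an ETS core, and GCGNGGGCG, an EGR binding site. TGACGT stood at 67 to 62 bases before the start in both Egr1 and Egr2, downstream of the shared CArG box. Egr1 had another TGACGT at 136 to 131 bases, and Ier2 had overlapping matches of its palindromic form between 66 and 59 bases. A window with both a CArG box and TGACGT was found for 30 of all promoters (0.0896%), and TGACGT itself was in 7.94%. CCGGAA was present in Egr2, Ier2 and Srf, and in 14.95% of all promoters. The EGR site was found only in Srf among the 5 windows, at 100 to 92 bases, and in 4.98% of all promoters. No searched motif overlapped a CArG box, and Nab2 held none of the 4.

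**Figure D1:**
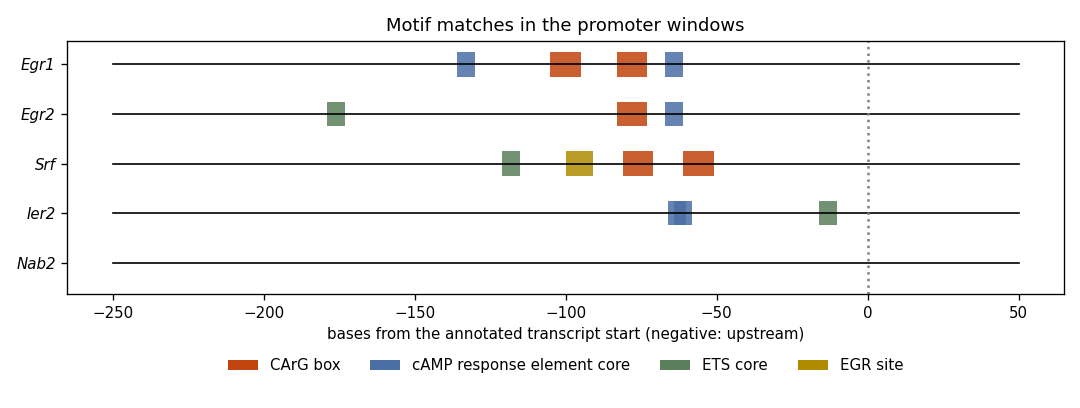
Motifs found in the promoter windows of Egr1, Egr2, Srf, Ier2 and Nab2, plotted by distance in bases from the annotated start. Marks show CArG boxes, cAMP response element cores, ETS cores and EGR sites on either strand. Egr1 and Egr2 have a CArG box 83 to 74 bases and a cAMP response element core 67 to 62 bases before the start.

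The arrays fell into sets by their control probe sets, and this touches every result that follows. At 4 h, the replicate 3 pair had hybridisation controls averaging 21217 for EGF and 23644.8 for control, against 55.6 to 110.8 on the other 4 arrays of that time. At 12 h, the actin 3' to 5' ratio, a sign of RNA degradation or short cDNA, was 11.1 to 21.7 on the 3 control arrays and on EGF replicates 1 and 2, against 1.24 on EGF replicate 3. The 4 h arrays had ratios of 1.20 to 1.61. Values within the sets, and fits with the set as a block or without the unusual arrays, are given where they change a result. Because the times are separate experiments with different RNA quality, levels at 12 h and 4 h are set side by side as values, and time, experiment and array set cannot be told apart.

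The astrocyte label was checked against marker genes. Of 10 named astrocyte markers, 6 entered the tests. Of these, 2 (33.3%) were lower with EGF at 12 h, beside 24.2% of all genes tested. None was called at 4 h, where 19.6% of all genes were lower and 12.8% higher. Those lower at 12 h were Glul, for glutamine synthetase, at a log2 change of -1.28 (adjusted p = 2.83e-05), and Aldoc, for an aldolase, at -5.64 (adjusted p = 1.81e-05). Aldoc averaged 31 in EGF and 2655.4 in control cultures at 12 h, and 85.6 in EGF and 160.5 in control cultures at 4 h. Only its control mean at 12 h was above the filter on dim probe sets. The size of the Aldoc change therefore depends on the constant added before log2, and its 4 h values are too dim to show a change. Gja1, a gap junction gene of this list, had signals of 51744 to 85279.8 over the 12 arrays, and the intermediate filament gene Vim had 60217.4 to 116059. The tested markers Slc1a3 and S100b were far dimmer, at 30.2 to 964.1 and 150.3 to 490.5. The defining markers Gfap, Aqp4, Slc1a2 and Aldh1l1 were all dim, below the filter of 215, with Gfap averaging 130 in EGF and 201 in control cultures at 12 h, and 195 in EGF and 215 in control cultures at 4 h. All 5 fibroblast and meningeal markers entered the tests, and none of 6 neuronal markers did. Of these, Col1a1 had 18107.9 to 82090.4 and Col1a2 had 33221.2 to 81597.5, so bright signals were not limited to the astrocyte list. The summed signal of the fibroblast list was 55301 to 112149 with EGF against 107237 to 138923 in control at 12 h, and 129044 to 137311 with EGF against 143006 to 173476 in control at 4 h, so the arms did not overlap at 4 h. By gene, 4 of the 5 (80%) were lower with EGF at 12 h, beside 24.2% of all genes tested. Their log2 changes were -3.03 for Dcn, -1.30 for Lum, -1.11 for Pdgfrb and -0.70 for Col1a2. At 4 h Dcn alone was called, at -0.47, and this 20% of the list is near the 19.6% of all genes called lower. The summed signal of the microglia list was 1469.6 to 2105.6 with EGF against 698.6 to 1040.4 in control at 12 h. At 4 h it was 737.1 to 913.4 with EGF against 988.7 to 1195.5 in control. The endothelial and pericyte sum was 1033 to 1508.9 with EGF against 2392.3 to 3037.7 in control at 12 h. At 4 h it was 1155.5 to 1612.2 with EGF against 2554.5 to 3051.5 in control. Of these lists, 3 of 7 and 1 of 4 named markers entered the tests. The part of these markers in the results was not tested. In bulk RNA, fewer cells of a type and less RNA per cell cannot be told apart.

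Most of the 7 genes were higher with EGF. At 12 h, 5 of 7 were higher with EGF, namely Egr1, Egr2, Nab2, Ier2 and Ier3. At 4 h, 4 of 7 were higher, namely Egr1, Egr2, Ier2 and Ier3, and no gene of the 7 was lower at either time. Over all 18625 tested probe sets, 15.3% were called higher at 12 h and 11.4% at 4 h, and 20.8% and 16.5% were called lower. The median log2 change of the 7 genes was 0.68 at 12 h and 0.83 at 4 h, against -0.092 and -0.17 over the 10261 genes tested. Calls are from limma on log2(signal + 24.4), with p-values adjusted by Benjamini-Hochberg over all tested probe sets and a threshold of 0.05. Fold changes on this scale are slightly smaller than the true ratio for dim genes.

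**Figure D2:**
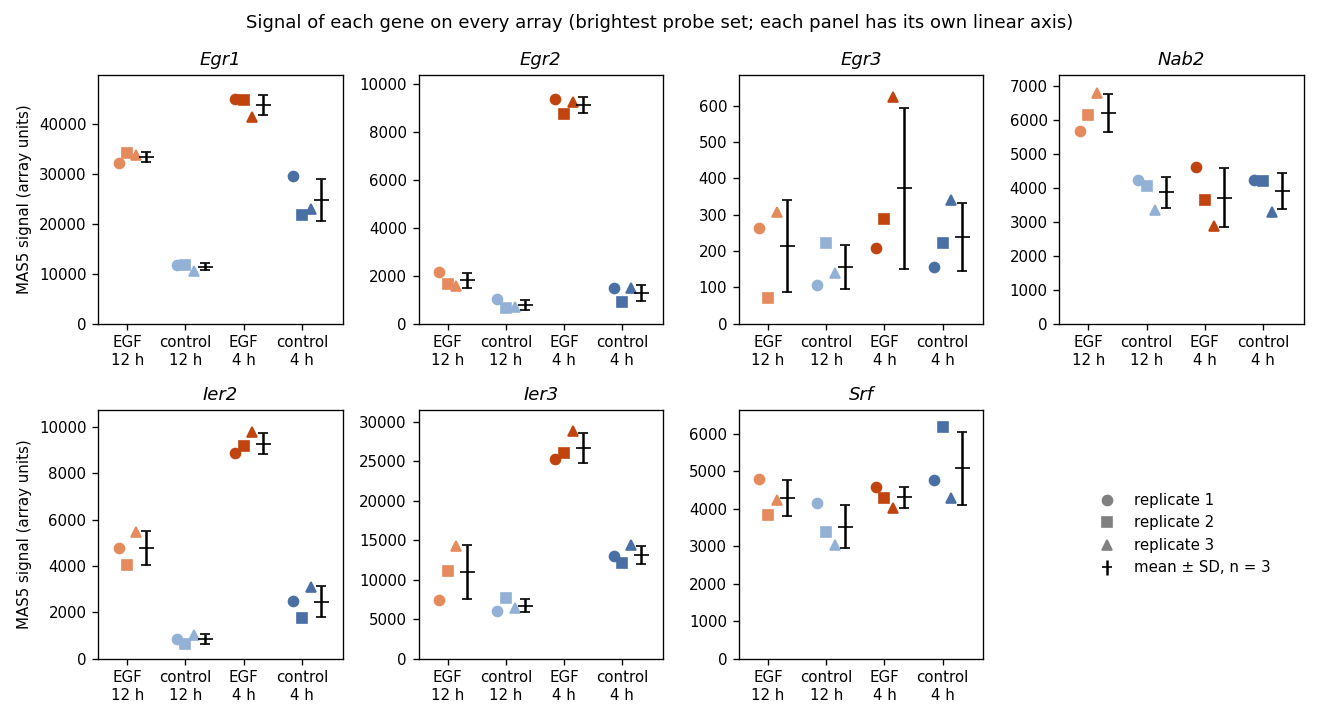
MAS5 signal in array units of each gene on all 12 arrays, brightest probe set, with the mean ± SD of each group of 3 (bars) and a linear axis of its own in each panel. EGF arrays lie above all control arrays at both times for Egr1, Egr2 and Ier2, at 12 h only for Nab2 and at 4 h only for Ier3, while the groups of Egr3 and Srf overlap.

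Egr1, the founding zinc finger factor of the family, gave bright signals in every culture. At 12 h it had 32264.3, 34154.5 and 33759.2 on EGF arrays, against 11765.1, 11809.5 and 10567.2 on control arrays. At 4 h it had 44902.9, 44791.7 and 41387.9 on EGF arrays, against 29649.1, 21801 and 23031.9 on control arrays. The EGF and control arrays did not overlap at either time, and control replicate 1 at 4 h was the highest of the untreated cultures. The mean signal with EGF was 2.93 times that of control at 12 h and 1.76 times at 4 h. The log2 change was 1.55 ± 0.13 (SE, adjusted p = 7.27e-07) at 12 h and 0.83 ± 0.13 (adjusted p = 2.91e-04) at 4 h.

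The order of the Egr1 levels was EGF at 4 h, EGF at 12 h, control at 4 h and control at 12 h, and no neighbouring groups in it overlapped. The mean at 12 h was 0.764 times that at 4 h in EGF cultures and 0.458 times in control cultures, so the larger ratio at 12 h went with a lower control level. Over all probe sets, EGF arrays all lay above control arrays for 19.7% at 12 h and 18.3% at 4 h, and of the 7 genes 4 did so at each time.

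Egr2, the relative of Egr1 that drives Schwann cell myelination, had the largest ratio of the 7 at 4 h. At 12 h it had 2160.4, 1668.2 and 1579.6 on EGF arrays, against 1024.1, 662.2 and 677.6 on control arrays. At 4 h it had 9349.4, 8736 and 9245 on EGF arrays, against 1485.8, 909.3 and 1494.7 on control arrays. All EGF arrays were above all control arrays of their time, and the EGF arrays at 4 h stood above all 9 others. The mean with EGF was 2.29 times that of control at 12 h and 7.03 times at 4 h, with log2 changes of 1.18 ± 0.22 (adjusted p = 8.66e-04) and 2.82 ± 0.22 (adjusted p = 8.32e-07). The EGF mean at 12 h was 0.198 times that at 4 h, whereas the control mean at 12 h was 0.608 times that at 4 h, with overlapping control arrays.

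The dimmer Egr2 probe set was higher with EGF at 4 h, with a wider spread, whereas at 12 h it showed no clear direction. Its mean was 1025 in EGF and 257 in control cultures at 4 h, and 185 in EGF and 133 in control cultures at 12 h. The 12 h means were below the filter on dim probe sets. This probe set passed that filter mainly through its EGF arrays at 4 h. It had 251.4, 166.8 and 135.9 on EGF arrays against 111.7, 206.3 and 80.9 on control arrays at 12 h, where the groups overlapped. It had 798.9, 807.8 and 1468.4 on EGF arrays against 366, 48.6 and 355.1 on control arrays at 4 h, where they did not. Its log2 change was 0.45 ± 0.58 (adjusted p = 0.574) at 12 h and 2.19 ± 0.58 (adjusted p = 0.0119) at 4 h, so the 12 h call of Egr2 rests on the brighter probe set.

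Egr3, which shares the EGR zinc fingers and is known mainly from neurons, muscle spindles and lymphocytes, was close to the filter, with a mean signal of 245 over the 12 arrays. It had 262.8, 70.2 and 308.2 on EGF arrays against 107.2, 222.3 and 139 on control arrays at 12 h. It had 207.3, 286.8 and 624.3 on EGF arrays against 155.4, 222.8 and 339 on control arrays at 4 h. The groups overlapped at both times, and the highest values at 4 h in both arms came from the replicate 3 pair. The log2 change was 0.26 ± 0.53 (adjusted p = 0.740) at 12 h and 0.51 ± 0.53 (adjusted p = 0.526) at 4 h, and a change of either sign could not be told from 0 at this spread.

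Nab2, the corepressor that binds EGR proteins and limits their activity, was higher with EGF at 12 h. It had 5665.5, 6137.6 and 6784 on EGF arrays against 4222.1, 4042.6 and 3361.6 on control arrays at 12 h. It had 4611.1, 3643.5 and 2880.9 on EGF arrays against 4218.6, 4188.4 and 3292.6 on control arrays at 4 h. The 12 h EGF arrays were above all 9 others, and the remaining groups overlapped. The mean with EGF was 1.60 times that of control at 12 h and 0.952 times at 4 h, with log2 changes of 0.68 ± 0.17 (adjusted p = 0.00830) and -0.088 ± 0.17 (adjusted p = 0.757). The sign at 4 h turned with another scaling of the arrays, to 0.11 after centring on the median. The control means were alike at both times, with a 12 h to 4 h ratio of 0.994, against 1.67 in EGF cultures.

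Ier2, an early response gene for a small nuclear protein, had the largest ratio of the 7 at 12 h. It had 4798.1, 4041.2 and 5482.2 on EGF arrays against 854.3, 644.2 and 1038.2 on control arrays at 12 h. It had 8889.3, 9182.8 and 9788.9 on EGF arrays against 2484, 1760.6 and 3107.6 on control arrays at 4 h. No neighbouring groups overlapped in the order EGF at 4 h, EGF at 12 h, control at 4 h and control at 12 h, the same order as for Egr1. The mean with EGF was 5.65 times that of control at 12 h and 3.79 times at 4 h, with log2 changes of 2.48 ± 0.21 (adjusted p = 1.24e-06) and 1.95 ± 0.21 (adjusted p = 1.78e-05). Its mean at 12 h was 0.514 times that at 4 h in EGF cultures and 0.345 times in control cultures.

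Ier3, an early gene whose product modulates cell survival and ERK signalling, was higher with EGF at both times. It had 7467.5, 11099.5 and 14294.3 on EGF arrays against 6063.8, 7608.7 and 6350 on control arrays at 12 h. It had 25252.7, 25979.4 and 28862.3 on EGF arrays against 12949, 12059.1 and 14371.8 on control arrays at 4 h. The 4 h groups were apart, whereas at 12 h EGF replicate 1 lay below control replicate 2, and EGF replicate 3, the array with the low actin ratio, was the highest. The mean with EGF was 1.64 times that of control at 12 h and 2.03 times at 4 h, with log2 changes of 0.67 ± 0.19 (adjusted p = 0.0147) and 1.02 ± 0.19 (adjusted p = 0.00141).

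The 12 h value of Ier3 depended on single arrays. Without EGF replicate 3 it was 0.45 ± 0.16 (adjusted p = 0.0350), and without EGF replicate 1 it was 0.92 (adjusted p = 4.79e-04). The call was lost without control replicate 1 (adjusted p = 0.0604), without control replicate 3 (adjusted p = 0.0520) and when the 12 h arrays were fitted alone (adjusted p = 0.0568).

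Srf, the transcription factor known to drive many early genes and its own gene, did not pass the test. It had 4774.5, 3818.4 and 4224.9 on EGF arrays against 4149.9, 3371.6 and 3025.6 on control arrays at 12 h. It had 4581.3, 4292 and 4016.7 on EGF arrays against 4765.3, 6160.3 and 4292.6 on control arrays at 4 h. All neighbouring groups overlapped, and control replicate 2 at 4 h was the highest array. The log2 change was 0.29 ± 0.16 (adjusted p = 0.189) at 12 h and -0.22 ± 0.16 (adjusted p = 0.344) at 4 h.

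The other tested Srf probe set had 950.9, 653 and 793.4 on EGF arrays against 567.9, 733.6 and 456.2 on control arrays at 12 h, and 515, 494.5 and 335.5 on EGF arrays against 614.6, 403.8 and 338.9 on control arrays at 4 h. Its log2 change was 0.44 ± 0.28 (adjusted p = 0.235) at 12 h and 0.0064 ± 0.28 (adjusted p = 0.990) at 4 h. The remaining Srf probe set was below the filter. It had 103.4, 32.6 and 246.3 on EGF arrays against 96.4, 43.6 and 27.8 on control arrays at 12 h, and 205.1, 191.4 and 140.1 on EGF arrays against 32.7, 53.9 and 128.3 on control arrays at 4 h. At 4 h its EGF arrays all lay above its control arrays, at 2.50 times the control mean, whereas at 12 h they overlapped. In the fit without the filter its log2 change was 0.73 (adjusted p = 0.452) at 12 h and 1.19 (adjusted p = 0.218) at 4 h. Neither of the tested Srf probe sets gave a call at either time.

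**Figure D3:**
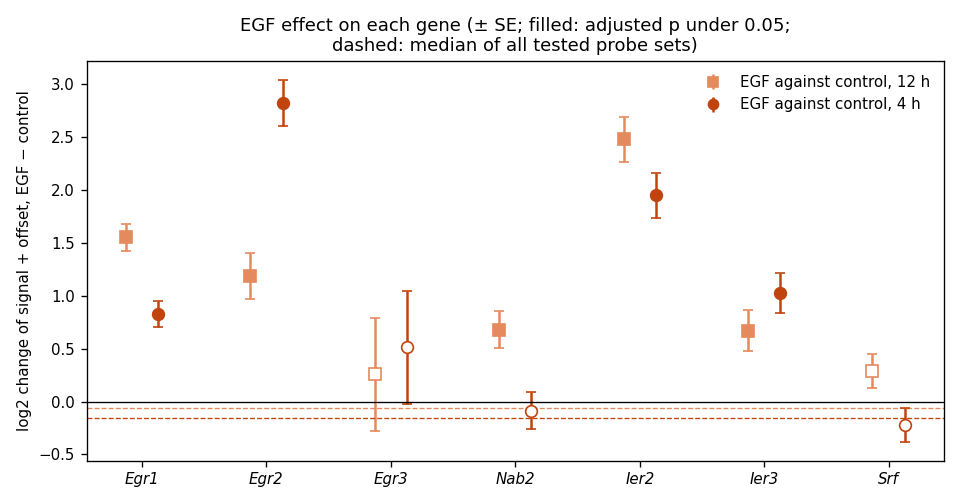
log2 change with EGF over control for each of the 7 genes at 12 h and 4 h, brightest probe set, with the SE of the fit as bars, filled symbols for an adjusted p under 0.05 and dashed lines for the median of all tested probe sets. Egr1 and Ier2 are higher at both times, Egr2 has 2.82 at 4 h and 1.18 at 12 h, and Nab2 has 0.68 at 12 h and -0.088 at 4 h.

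The EGF effect differed between the times for 2 of the 7 genes, in opposite directions. The difference of the log2 changes, 12 h minus 4 h, was 0.73 ± 0.18 (adjusted p = 0.0186) for Egr1 and -1.64 ± 0.31 (adjusted p = 0.00438) for Egr2. Over all tested probe sets, 5.45% were called higher in this comparison and 6.11% lower. The Egr1 call was lost after centring on the median (0.60, adjusted p = 0.111) and without control replicate 3 of 12 h (0.67, adjusted p = 0.0560). The dimmer Egr2 probe set had -1.74 ± 0.81 (adjusted p = 0.194).

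For Nab2 the difference was 0.76 ± 0.25 (adjusted p = 0.0641), and with the replicate number as a block it passed, at an adjusted p of 0.0467. For Ier2 the difference was 0.53 ± 0.30 (adjusted p = 0.285), for Ier3 -0.35 ± 0.27 (adjusted p = 0.441), for Srf 0.51 ± 0.23 (adjusted p = 0.176) and for Egr3 -0.26 ± 0.75 (adjusted p = 0.867). The Nab2 difference passed in 8 of 25 alternatives, among them the fit with the array set as a block (0.70, adjusted p = 0.00805), so whether its effects at 12 h and 4 h differ depends on the fit. These alternatives are not all separate, because the set block gives the same 12 h estimate as leaving out EGF replicate 3 of 12 h. The Ier3 difference passed in 1 of 25 alternatives (adjusted p = 0.0434) and that of Srf in 1 of 26 (adjusted p = 0.0484).

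Within the array sets the larger effects kept their sign. In the 12 h set of 3 controls and EGF replicates 1 and 2, the log2 changes were 1.54 for Egr1, 1.27 for Egr2, 0.61 for Nab2, 2.37 for Ier2 and 0.45 for Ier3. At 4 h, replicates 1 and 2 gave 0.82 for Egr1, 2.93 for Egr2, 2.10 for Ier2 and 1.03 for Ier3. The replicate 3 pair at 4 h, with 1 array in each arm and so no error of its own, gave 0.84 for Egr1, 2.61 for Egr2, 1.65 for Ier2 and 1.00 for Ier3. Nab2 at 4 h was -0.036 and -0.19 in these sets, and Srf was -0.29 and -0.095. Egr3 was -0.081 in the 12 h set, against 0.26 over all arrays.

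**Figure D4:**
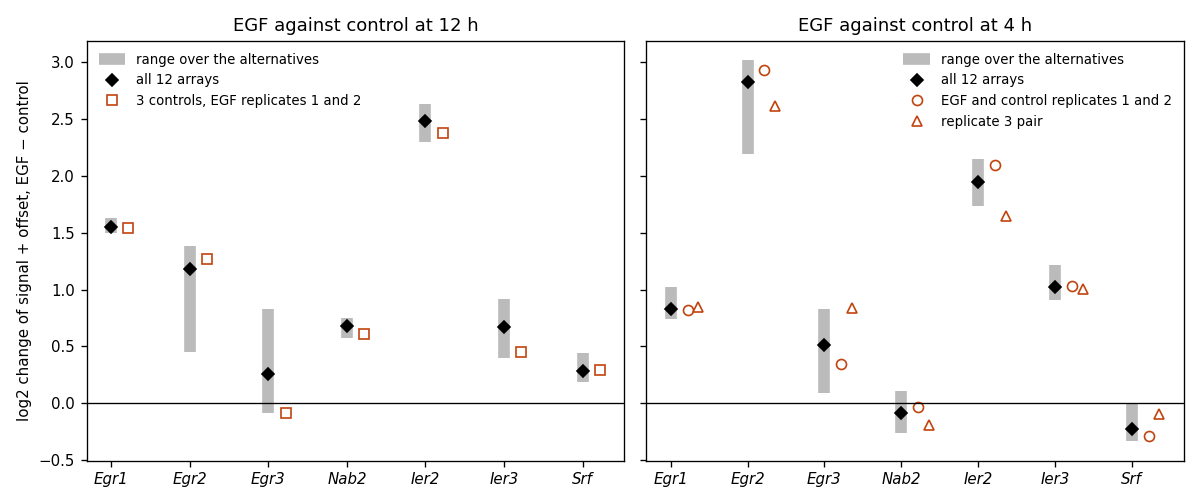
log2 change with EGF over control over all 12 arrays (diamonds), within the sets of like arrays (open symbols) and over the processing alternatives (grey bars, which include the next brightest probe set of Egr2 and Srf). The 4 h changes of Egr1, Egr2, Ier2 and Ier3 stay above 0 in both sets, and the 12 h range of Egr3 spans 0.

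The centring of the arrays moved the background of the 4 h comparison. Across the tested probe sets the 4 h comparison had a median log2 change of -0.15, and of 0.045 after each array was centred on its median, which moved the share of higher calls among all calls to 63.7% from 40.8%. Centring gave 4 h changes of 1.02 for Egr1, 3.02 for Egr2, 2.14 for Ier2 and 1.22 for Ier3, all still called, and -0.028 for Srf.

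Signals of the 7 genes moved together in part over the 12 arrays, which share groups, sets and scaling. Pearson's r of the log2 signals was 0.960 for Egr1 and Ier2, 0.891 for Egr2 and Ier2, 0.871 for Egr2 and Ier3 and 0.828 for Egr1 and Egr2. Nab2 had r between -0.400 and 0.234 with the other 6 genes, and Srf had r between 0.183 and 0.446, so both were only weakly like the rest. Egr3 ran from -0.400 with Nab2 to 0.587 with Ier3. Outside the 7, the tested genes most like Egr1 were Ifrd1 (r = 0.973), Maff (0.973) and Nars1 (0.973). Those most like Egr2 were Rgs2 (0.985), Txnrd1 (0.983) and Mast4 (0.977), and those most like Ier2 were Il1r1 (0.985), Ifrd1 (0.976) and Inhba (0.973). Ifrd1 was thus on the lists of both Egr1 and Ier2.

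Nab2 was most like Lonp1 (0.972), Prrc1 (0.940) and Taf10 (0.935), and Ier3 was most like Srpk1 (0.984), Hnrnpf (0.980) and Pgam5 (0.971). The closest genes to Egr3 were Trim29 (0.847), Il33 (0.840) and Mettl13 (0.833), and to Srf they were Spata13 (0.806), Prps2 (0.804) and Fam171a2 (0.797). Egr3 and Srf therefore had no partner as close as those of the other 5 genes. These are the highest values out of all genes tested and describe likeness only.

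Genes listed here as other immediate early genes of the SRF and ternary complex factor class were often higher with EGF. The list was drawn up with earlier results of these data known, and control of each gene by SRF was not tested. Of 23 tested, 15 (65.2%) were higher and 1 lower at 12 h, and 12 (52.2%) were higher and 2 lower at 4 h, with a median log2 change of 1.04 at 12 h and 0.80 at 4 h. Over all 10261 genes tested, 16.5% were called higher and 24.2% lower at 12 h, and 12.8% higher and 19.6% lower at 4 h. Fosl1, an AP-1 subunit, had 3.51 ± 0.22 (adjusted p = 6.81e-08) at 12 h and 5.11 ± 0.22 (adjusted p = 4.07e-09) at 4 h. Jun, its AP-1 partner, had 2.07 ± 0.17 at 12 h and 2.45 ± 0.17 at 4 h. The growth regulator Myc had 1.33 ± 0.16 at 12 h and 2.33 ± 0.16 at 4 h. The zinc finger gene Klf6 had 1.79 ± 0.13 at 12 h and 0.86 ± 0.13 at 4 h, and the small Maf gene Maff had 2.41 ± 0.20 at 12 h and 1.71 ± 0.20 at 4 h, all called.

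Fos, the best known CArG box target, was 1 of the 2 immediate early genes called lower at 4 h. Its mean signal was 807 ± 38.7 with EGF against 553 ± 101 in control at 12 h, and 776 ± 10.3 with EGF against 6096 ± 1505 in control at 4 h (SD, n = 3). The log2 change was 0.54 ± 0.19 (adjusted p = 0.0442) at 12 h and -2.91 ± 0.19 (adjusted p = 2.25e-07) at 4 h. Control cultures thus held the high Fos signal at 4 h. The other was Dusp1, named here after seeing its values, at -1.19 ± 0.13 (adjusted p = 1.86e-05) at 4 h. Dusp1 was also the gene called lower at 12 h, at -0.65 ± 0.13 (adjusted p = 0.00162).

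Among 13 tested SRF partners, ETS cofactors and pathway kinases, 3 (23.1%) were higher and 0 lower at 12 h, beside 16.5% and 24.2% of all genes. At 4 h, 4 (30.8%) were higher and 1 (7.69%) lower, beside 12.8% and 19.6%. The median log2 change was -0.0079 at 12 h and -0.049 at 4 h. The ETS factor Ets1 had 1.82 ± 0.16 at 12 h and 1.13 ± 0.16 at 4 h, and the ternary complex factor Elk3 had 1.67 ± 0.20 at 12 h and 1.34 ± 0.20 at 4 h. Map2k1, which encodes the ERK kinase MEK1, had 1.52 ± 0.15 at 12 h and 0.75 ± 0.15 at 4 h, all called. Ets2 had -0.0079 ± 0.16 (adjusted p = 0.975) at 12 h and 1.01 ± 0.16 (adjusted p = 4.93e-04) at 4 h. Elk1 had -0.44 ± 0.24 (adjusted p = 0.165) at 12 h and -0.14 ± 0.24 (adjusted p = 0.714) at 4 h.

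The cytoskeletal and contractile genes, which SRF controls with the actin-sensing MRTF coactivators, were called in both directions. Of 20 tested, 6 (30%) were higher and 6 (30%) lower at 12 h, beside 16.5% and 24.2% of all genes. At 4 h, 2 (10%) were higher and 3 (15%) lower, which is no more than the 12.8% and 19.6% of all genes. The list had medians of 0.20 at 12 h and -0.11 at 4 h. The actin crosslinker Actn1 had 2.33 ± 0.15 at 12 h and 0.58 ± 0.15 at 4 h, and the scaffold gene Pdlim7 had 1.65 ± 0.21 at 12 h and 1.02 ± 0.21 at 4 h. Tpm4, a tropomyosin, had 1.50 ± 0.13 (adjusted p = 1.32e-06) at 12 h and 0.0064 ± 0.13 (adjusted p = 0.979) at 4 h. The smooth muscle type light chain Myl9 fell by 2.23 ± 0.15 at 12 h and by 0.71 ± 0.15 at 4 h, and Fhl1 fell by 1.96 ± 0.15 at 12 h and by 0.73 ± 0.15 at 4 h, all called. Filip1l had -0.47 ± 0.21 (adjusted p = 0.0958) at 12 h and -2.58 ± 0.21 (adjusted p = 1.36e-06) at 4 h.

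Of 17 tested genes reported elsewhere as EGR1 targets, 8 (47.1%) were higher and 2 (11.8%) lower at 12 h, beside 16.5% and 24.2% of all genes. At 4 h, 10 (58.8%) were higher and 2 (11.8%) lower, beside 12.8% and 19.6%. The list had medians of 0.66 at 12 h and 0.51 at 4 h. The hyaluronan receptor gene Cd44 had 3.26 ± 0.11 at 12 h and 2.80 ± 0.11 at 4 h. Ptgs2, the inducible prostaglandin synthase, had 2.70 ± 0.22 at 12 h and 4.46 ± 0.22 at 4 h. The growth factor gene Fgf2 had 2.40 ± 0.22 at 12 h and 2.54 ± 0.22 at 4 h, and the phosphatase gene Ptpn1 had 0.88 ± 0.15 at 12 h and 1.15 ± 0.15 at 4 h. Icam1, an adhesion molecule, fell by 1.11 ± 0.13 (adjusted p = 1.70e-05) at 12 h and rose by 0.37 ± 0.13 (adjusted p = 0.0412) at 4 h.

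None of the tested Schwann cell myelin genes that EGR2 is known to activate was called higher with EGF. Of 5 tested, 0 were higher and 4 (80%) lower at 12 h, and 0 were higher and 2 (40%) lower at 4 h, beside 24.2% and 19.6% of all genes called lower. The list had medians of -0.74 at 12 h and -0.38 at 4 h. Mbp fell by 1.24 ± 0.19 at 12 h and by 1.23 ± 0.19 at 4 h, and Cnp fell by 0.97 ± 0.17 at 12 h and by 0.99 ± 0.17 at 4 h. Both also mark oligodendrocytes, and the other 3 tested markers of that lineage did not move one way. Pdgfra was lower, at -1.26 (adjusted p = 3.00e-05) at 12 h and -1.01 (adjusted p = 2.77e-04) at 4 h. Cspg4 had 2.01 (adjusted p = 0.00152) at 12 h and 1.12 (adjusted p = 0.0521) at 4 h, with EGF arrays above control arrays at both times. Mag, which is also on the Schwann list, had 0.56 (adjusted p = 0.253) at 12 h and 0.11 (adjusted p = 0.861) at 4 h. Its EGF arrays lay above its control arrays at 12 h. The summed signal of that list, of which Mbp and Cnp are themselves a part, was 6166.7 to 7517.4 with EGF against 12840.3 to 14048.5 in control at 12 h, and 5535.8 to 6353.5 with EGF against 9858.9 to 10488.8 in control at 4 h. The part of such cells in the fall was not tested. Prx had -0.74 ± 0.18 (adjusted p = 0.00663) at 12 h and -0.38 ± 0.18 (adjusted p = 0.146) at 4 h, and Pmp22 had -0.50 ± 0.13 (adjusted p = 0.00942) at 12 h and 0.18 ± 0.13 (adjusted p = 0.330) at 4 h. The EGF arrays of Pmp22 lay above its control arrays at 4 h. Sox10, a defining Schwann and oligodendrocyte factor, was dim, with 15.1 to 158.7 over the 12 arrays.

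**Figure D5:**
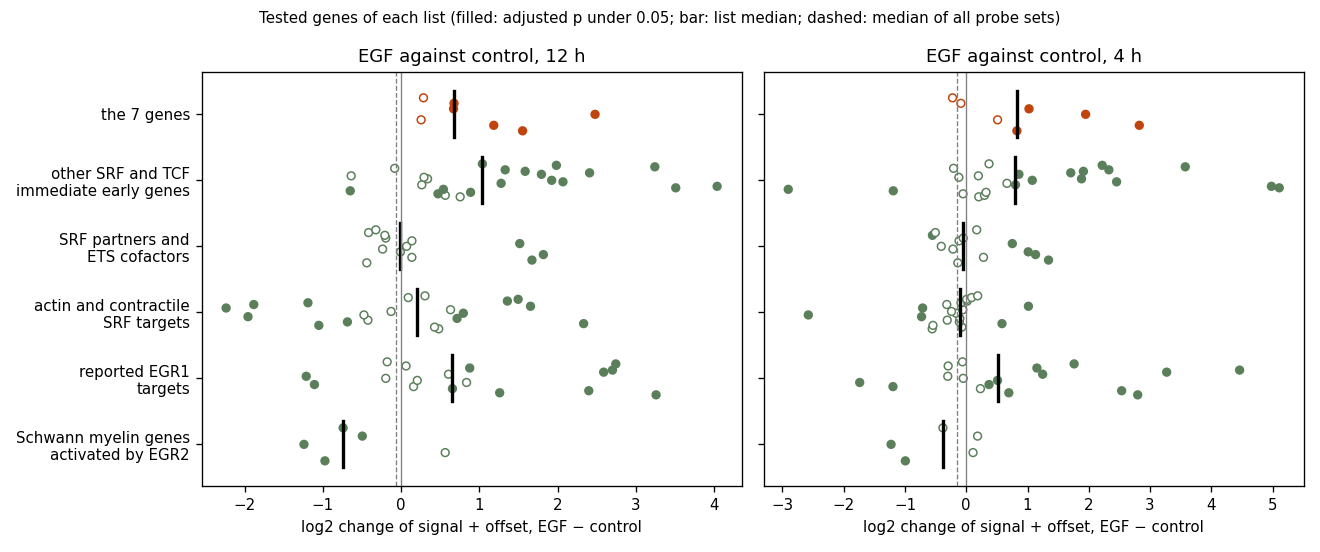
log2 change with EGF over control at 12 h (left) and 4 h (right) for every tested gene of each list, 1 point a gene, filled where the adjusted p was under 0.05. The solid bar is the list's median and the dashed line the median of all tested probe sets; the other immediate early genes have medians of 1.04 at 12 h and 0.80 at 4 h, and the Schwann cell myelin genes of -0.74 and -0.38.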

How the data were processed

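The deposited values are a linear intensity (signal) for each probe set. The authors made them with MAS5, whose version the sources used here do not give, per the submitters' processing notes. Trimmed means (2%) lay between 1500.46 and 1500.56, so the arrays were already scaled, and median signals ran from 305.5 to 415.2. The number of arrays limits the precision. No detection calls were used.

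After 57 control probe sets were left out, tests covered the 18625 of 31042 whose mean signal reached the 40th percentile (215). The 10th percentile, 24.4, was added before log2. A linear model of the 4 groups was fitted to all 12 arrays by limma 3.58.1 (R 4.3.3, 8 residual degrees of freedom, empirical Bayes with an intensity trend). Tests were two-sided over 3 comparisons: EGF against control within each experiment, and the difference of these effects. Figures used matplotlib 3.10.9. On simulated data with this design, 86% of 4-fold and 54% of 2-fold changes were recovered at 4 h. The simulation changed far fewer probe sets than were called here, and had independent noise and no array sets. Its rates may therefore differ from those of the real fit.

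Probe sets took the platform's symbols: 20832 carried 1, 436 several and 9831 none, and 20764 matched the current gene table. Coordinates belong to the RefSeq promoter windows only.

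The text names all 7 genes, for each list and time up to 4 genes of smallest p, and the 3 genes most like each member. Dusp1 was added after seeing its values. The members and lists were chosen with earlier results of these data known. Array set limits (hybridisation mean 1000, actin ratio 5) were set after seeing the data. Same-numbered EGF and control arrays deviated together at 4 h, at r of 0.121, 0.150 and 0.376, all over the limit of 0.1 set for pairing. Replicates 1 and 2 correlated as well with each other's number (0.142 and 0.138). The main fit used no pairing, so its SE and p-values are unpaired, and the replicate block was run only as an alternative. At 12 h r was 0.083, -0.111 and -0.103, so those numbers did not pair.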

Additional observations from a re-analysis of the deposited data

Results flagged for a closer look

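The EGF effect on Egr1 differed between the experiments by the interaction test, with a log2 change 0.73 larger at 12 h than at 4 h. The EGF effect on Egr2 differed by the same test in the other direction, with 12 h minus 4 h at -1.64. The Egr1 difference lost its call with median centring and without control replicate 3 of 12 h, and that of Egr2 on its dimmer probe set.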

How the results depend on the processing

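Over 542 recomputed values for the 7 genes, 517 kept their direction and their side of the threshold, 8 turned sign, 10 gained a call and 7 lost one. The calls of Egr1, Egr2, Ier2 and Ier3 at 4 h and of Egr1, Nab2 and Ier2 at 12 h held in all alternatives run. Signs turned for values that were never called. Nab2 at 4 h was 0.11 with median centring and -0.26 to 0.081 when single arrays were left out, Srf at 4 h was 0.0064 on its next probe set, and Egr3 at 12 h was -0.081 with the array set as a block or without both unusual replicate 3 sets (added after seeing the data), and -0.081 to 0.83 with single arrays left out. The Egr3 difference ran from -0.59 to 0.31 when single arrays were left out. The 2 genes that differed between times became 1 with the next probe set or median centring, 4 with the array set as a block, alone or after quantile normalization (quantile with block added after seeing the data), and 1 to 3 when single arrays were left out. With the replicate block, 5 genes were called at 12 h, 4 at 4 h and 3 for the difference (adding Nab2), and no other call of the 7 genes changed. Over all probe sets, lower calls at 4 h were 3068, against 1522 with median centring and 4960 with the set block, and higher calls at 4 h were 2118, against 3501 with quantile normalization and the set block. Higher calls for the difference were 1015, against 568 (median centring), 2168 (set block), 2258 (with quantile normalization) and 1790 (without both replicate 3 sets), and 668, 647 and 666 without EGF 4 h replicate 2, control 4 h replicate 2 or control 12 h replicate 1. Lower calls there were 1138, against 1924, 1993 and 1749 in the same set fits and 757 without control 12 h replicate 1. Egr3 has no value at the 60th percentile filter, and fits of 1 experiment give no difference. Egr3 lay near the dim limit, where signal over background sets the precision. The cause of these moves was not tested.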
